A study of Mus musculus with 188 samples.

Results

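The 8 genes described here act in heme breakdown and heme transport across membranes, and were followed in cultured mouse brain slices exposed to heme or hemoglobin. They are Hmox1, Hmox2, Blvra, Blvrb, Slc48a1, Flvcr1, Flvcr2 and Abcg2. They were chosen by function and symbol with earlier results of these data known, so counts of them beside all genes are descriptive. By Ensembl gene ID each was found among the 25655 genes listed for batch 1 and the 25528 of batches 2 and 3. All 8 passed the filter on low counts in both sets. Hmox1, Blvrb and Slc48a1 were higher than in control slices under nearly every treatment, whereas Hmox2, Blvra, Flvcr1, Flvcr2 and Abcg2 stayed between -0.32 and 0.39 on the log2 scale.

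Heme is opened by heme oxygenase, which releases iron, carbon monoxide and biliverdin. Hmox1 encodes the inducible enzyme and Hmox2 the constitutive one. Biliverdin is then reduced by biliverdin reductase A (Blvra), which yields bilirubin IXα. Blvrb encodes an NADPH-dependent flavin reductase that also reduces biliverdin IXβ, another isomer. Slc48a1 (HRG1) carries heme from the lumen of endolysosomes to the cytosol, Flvcr1 and Abcg2 are known as exporters of heme, and Flvcr2 is a transporter of the same family as Flvcr1 that is known from brain endothelium. FLVCR1 and FLVCR2 have also been described as choline transporters. Hmox1 is a textbook target of the repressor BACH1, which lets go of DNA when it binds heme, and of the activator NRF2.

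The slices were organotypic brain slice cultures (BSC) of young adult male and female C57BL/6J mice, kept for a week before treatment, and each was sequenced as bulk polyadenylated RNA. In batch 1 they received no toxin, heme bound to human albumin (heme-albumin, 12.5, 50, 200 or 400 µM) or heme bound to human hemopexin (hemeHpx, 200 µM) for 24 h, with 10 libraries in each of the 6 groups. In batches 2 and 3 they received no toxin, free human hemoglobin (Hb, 200 or 400 µM), hemoglobin bound to human haptoglobin (HbHp, 200 or 400 µM) or haptoglobin alone (Hp, 400 µM), for 24 or 48 h. Of 188 libraries, 167 in 18 groups were compared, and 21 whose labels left their treatment or time unclear were not. The titles of the hemeHpx libraries name haptoglobin, while their treatment tags, library names and the published methods give hemopexin, which was followed.

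Library depth ran from 11038484 to 54174784 counted reads, so even the least abundant of the 8 genes, Flvcr2, had between 13 and 222 reads in each library and Hmox1 never fewer than 7023. No replicate pair was alike within sampling noise. The libraries of batches 2 and 3 came from a pair of culture rounds, E1 and E2 by their names. All HbHp libraries belonged to batch 3 and round E2, whereas 7 of 10 controls at 24 h and 7 of 9 at 48 h belonged to round E1, and control levels differed between the rounds. Batch and round were therefore terms of the model, and values within a round or batch stand beside the results. In batch 1 every group drew on the same 9 mouse codes of the library names, which were a term only in an alternative. A slice holds all cell types of the brain, so fewer cells of a type and less RNA per cell cannot be told apart.

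In control slices of batch 1 the 8 genes spanned 3 orders of magnitude in reads per length of exon (CPM per kb). Hmox1 led with a mean of 771 ± 315 CPM per kb (SD, n = 10), followed by Slc48a1 (85.01 ± 13.4) and Hmox2 (26.1 ± 3.5). Flvcr1 (9.35 ± 1.76), Blvra (9.23 ± 1.72) and Blvrb (8.39 ± 2.05) came next and lay within each other's spread. Abcg2 (2.83 ± 0.44) and Flvcr2 (0.66 ± 0.23) were lowest. The controls of batches 2 and 3 kept the 3 highest and the 2 lowest in the same places, with Hmox1 at 851 ± 305 CPM per kb at 24 h and Flvcr2 at 0.73 ± 0.22. The inducible heme oxygenase was thus the most abundant transcript of the group before any heme was added, in tissue cut and kept in culture.

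Hmox1 rose with the dose of heme-albumin. In control slices it ran from 638 to 2186 CPM (reads scaled to library size), with a median of 1197, and at 12.5 µM from 1450 to 2866 (median 1685). At 50 µM it ran from 1772 to 4181 CPM (median 2386), at 200 µM from 2252 to 4449 (median 3356) and at 400 µM from 3445 to 6596 (median 4062). All 10 libraries at 200 µM and all 10 at 400 µM lay above the highest control, against 8 of 10 at 50 µM and 2 of 10 at 12.5 µM. The log2 fold change against control was 0.46 ± 0.18 (SE) at 12.5 µM, which did not pass (adjusted p = 0.614), then 1.03 ± 0.18 at 50 µM (adjusted p = 0.000414), 1.32 ± 0.19 at 200 µM (4.72e-07) and 1.76 ± 0.19 at 400 µM (5.35e-11), tested with edgeR's quasi-likelihood F test and adjusted over all genes by Benjamini-Hochberg. The rise at 400 µM was 3.40-fold.

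**Figure D1:**
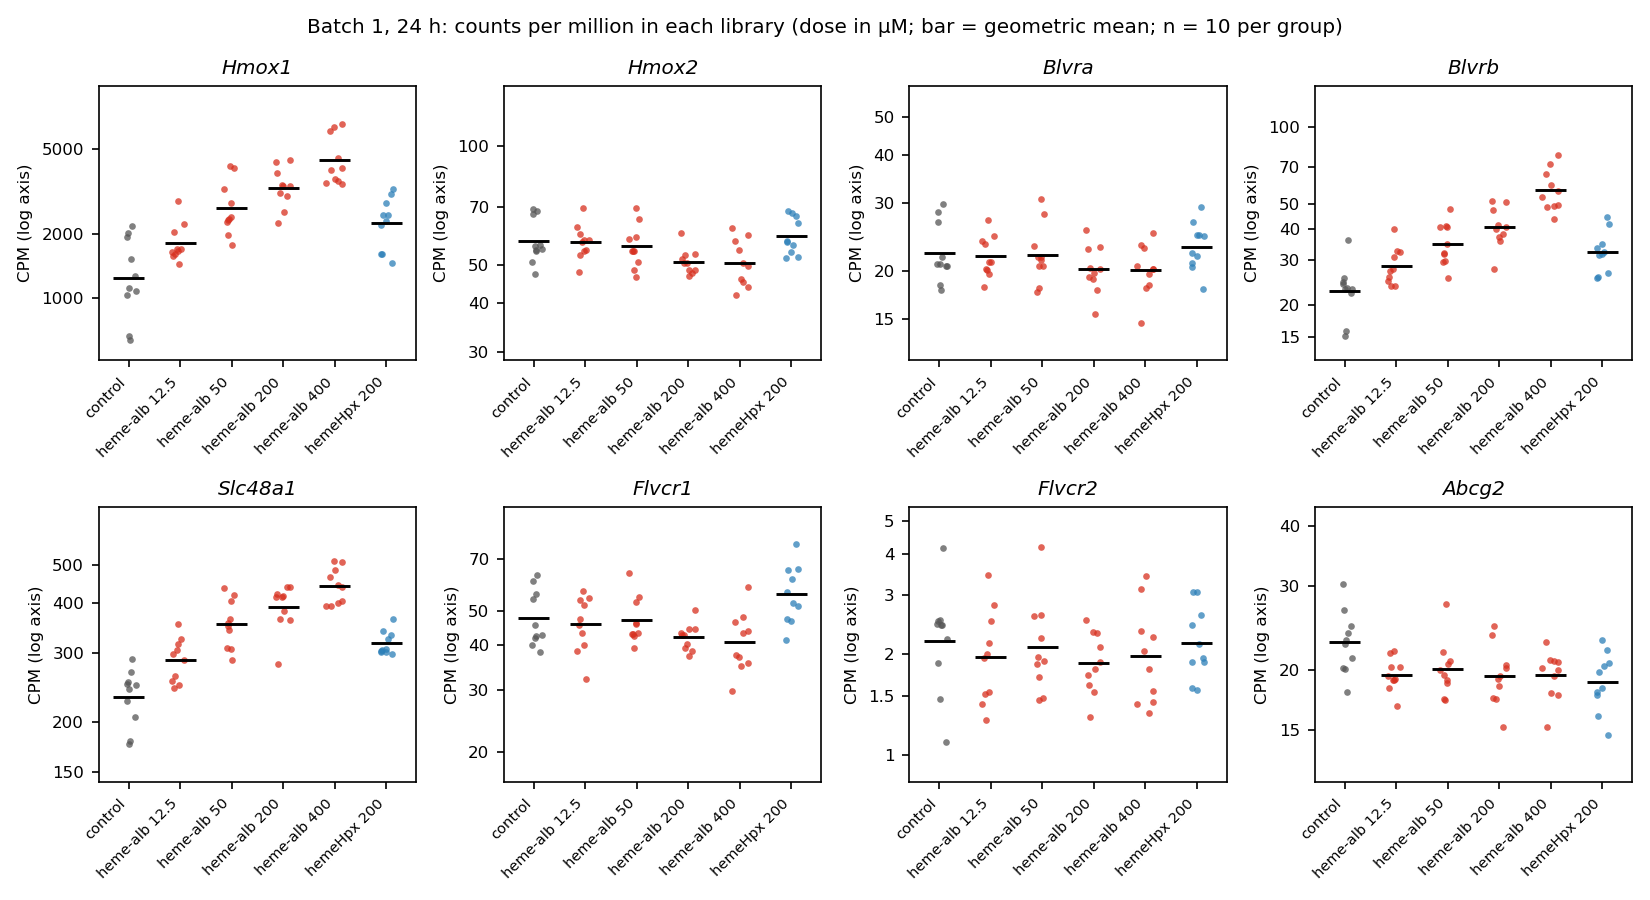
CPM (log axis) of the 8 genes in each library of batch 1, in control slices and after 24 h of heme-albumin (12.5 to 400 µM) or hemeHpx (200 µM), with the geometric mean of each group as a bar (n = 10). Hmox1, Blvrb and Slc48a1 climb with the dose of heme-albumin, and their hemeHpx libraries sit lower than those of heme-albumin at 200 µM. The other 5 genes show no such climb.

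Slc48a1, the endolysosomal heme carrier, moved by less than Hmox1 but with a narrower spread. It ran from 177 to 289 CPM in controls (median 246), from 287 to 437 at 50 µM (median 354) and from 394 to 512 at 400 µM (median 442), where all 10 libraries were above the highest control. Its log2 fold change was 0.31 ± 0.08 at 12.5 µM (adjusted p = 0.278), 0.61 ± 0.08 at 50 µM (6.67e-07), 0.75 ± 0.08 at 200 µM (4.11e-10) and 0.93 ± 0.08 at 400 µM (8.76e-14). The highest fold was 1.90. With the mouse code of the library name as a block, the value at 12.5 µM passed (0.32, adjusted p = 0.0335). Ranked by p among the 15554 genes tested, Slc48a1 stood at place 7 for 50 µM, 17 for 200 µM and 33 for 400 µM, ahead of Hmox1 at places 26, 59 and 87.

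Blvrb, the flavin and biliverdin-IXβ reductase, also rose. It ran from 15.2 to 36.03 CPM in controls (median 23.2), from 27.7 to 51.5 at 200 µM (median 40.1) and from 43.7 to 77.9 at 400 µM (median 54.6). The 400 µM libraries were all above the highest control, and at 200 µM 8 of 10 were. Its log2 fold changes were 0.31 ± 0.12 at 12.5 µM (adjusted p = 0.614), 0.59 ± 0.12 at 50 µM (0.00460), 0.81 ± 0.12 at 200 µM (3.38e-06) and 1.30 ± 0.12 at 400 µM (2.34e-12), the last a 2.46-fold rise. Between neighbouring doses it was the only one of the 8 genes to pass a test, rising by 0.49 ± 0.12 from 200 to 400 µM (adjusted p = 0.0234), a step at which 1.27% of all genes passed. From 50 to 200 µM (background 0.797%) and from 12.5 to 50 µM (0.00%) none of the 8 passed, and the step from 12.5 to 50 µM was 0.57 ± 0.18 for Hmox1, 0.29 ± 0.12 for Blvrb and 0.31 ± 0.08 for Slc48a1.

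The other 5 genes did not follow. At 200 µM heme-albumin Hmox2 had a log2 fold change of -0.18 and Blvra of -0.15, and neither passed at any dose, except that Hmox2 passed at 400 µM with the mouse code as a block (-0.19, adjusted p = 0.0457). Counted over the 8 genes, 0 passed at 12.5 µM, where 0.0450% of all genes did (7 genes, against 1226 at an unadjusted p under 0.05), 3 passed at 50 µM (0.463% of all genes), and 3 at 200 µM (13.6%). At 400 µM 3 were called higher, where 14.7% of all genes were, and 1 lower, where 14.3% were. The lower one was Abcg2, a broad exporter of the ABC family that is abundant at the blood-brain barrier, which fell by 0.23 ± 0.08 on the log2 scale (adjusted p = 0.0302). Its libraries ran from 18.1 to 30.3 CPM in controls and from 15.3 to 22.9 at 400 µM, so the groups overlapped, and without the filter on low counts the call was lost (adjusted p = 0.0575). With the block Abcg2 also passed at 200 µM (-0.24, adjusted p = 0.0301).

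Promoter sequence was at hand for 6 of the 8 genes in the RefSeq windows of build GRCm38.p6 (250 bases before to 50 after each start site), and not for Hmox1 or Slc48a1. The bases before the start are printed for the reductase that rose, Blvrb, beside the reductase and the exporter that did not follow it, Blvra and Flvcr1. Capitals mark matches to the core of the antioxidant response element, TGACNNNGC, on either strand.
Blvrb, chr7:27447728-27447977, plus strand: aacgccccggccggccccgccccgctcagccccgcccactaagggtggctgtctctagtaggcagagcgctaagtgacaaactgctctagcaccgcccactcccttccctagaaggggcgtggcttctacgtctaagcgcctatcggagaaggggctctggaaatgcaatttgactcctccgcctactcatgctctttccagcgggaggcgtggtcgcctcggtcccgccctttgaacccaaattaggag
Blvra, chr2:127070407-127070656, plus strand: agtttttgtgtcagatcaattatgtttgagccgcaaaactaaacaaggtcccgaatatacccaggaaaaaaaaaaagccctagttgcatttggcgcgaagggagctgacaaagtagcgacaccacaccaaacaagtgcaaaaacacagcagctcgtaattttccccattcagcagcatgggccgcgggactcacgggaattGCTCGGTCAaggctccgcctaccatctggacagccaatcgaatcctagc
Flvcr1, chr1:191026191-191026440, minus strand: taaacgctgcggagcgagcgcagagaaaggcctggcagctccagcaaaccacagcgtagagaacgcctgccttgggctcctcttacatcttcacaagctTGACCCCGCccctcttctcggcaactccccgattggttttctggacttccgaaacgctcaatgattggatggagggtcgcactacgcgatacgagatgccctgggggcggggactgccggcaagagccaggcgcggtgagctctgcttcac

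The core lay 49 bases before the start in Blvra (on the opposite strand) and 151 bases before it in Flvcr1, and 12.4% of all 32851 promoter windows of that length hold it. Neither Blvrb window held it. The E-box CACGTG was in 1 of the 11 windows of these 6 genes, that of Flvcr2, and in 7.15% of all windows. A match names letters, not a site that is bound, and these windows do not reach the distal elements known to drive Hmox1.

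HemeHpx at the same 200 µM raised the same 3 genes by less. Hmox1 ran from 1466 to 3253 CPM (median 2379), with 7 of 10 libraries above the highest control, and its log2 fold change against control was 0.79 ± 0.18 (adjusted p = 0.0185). Slc48a1 ran from 297 to 364 CPM (median 306), all 10 libraries above the highest control, at 0.44 ± 0.08 (0.00229). Blvrb ran from 25.7 to 44.3 CPM (median 32.1), with 2 of 10 above the highest control, at 0.49 ± 0.12 (0.0289). Abcg2 was lower than in control (-0.27 ± 0.08, adjusted p = 0.0410, and 0.0551 without the filter), so that 4 of the 8 genes passed where 8.20% of all genes did (23.8% with the mouse code as a block).

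Set directly against heme-albumin at 200 µM, hemeHpx left Hmox1 lower by 0.54 ± 0.18 on the log2 scale (adjusted p = 0.0263), Blvrb lower by 0.32 ± 0.12 (0.0434) and Slc48a1 lower by 0.31 ± 0.08 (0.00439). A pair of genes was higher with hemeHpx. The plasma membrane exporter Flvcr1 ran from 41.5 to 77.1 CPM (median 54.4) under hemeHpx, from 37.3 to 50.2 (median 42.8) under heme-albumin and from 38.2 to 63.1 (median 44.1) in controls, and it was higher with hemeHpx than with heme-albumin by 0.42 ± 0.11 (adjusted p = 0.00393). Hmox2 was higher by 0.22 ± 0.07 (0.0234). Against control neither gene passed under either carrier: Flvcr1 stood at 0.22 under hemeHpx and -0.19 under heme-albumin. In all, 5 of the 8 genes differed between the carriers, where 25.9% of all genes did.

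**Figure D2:**
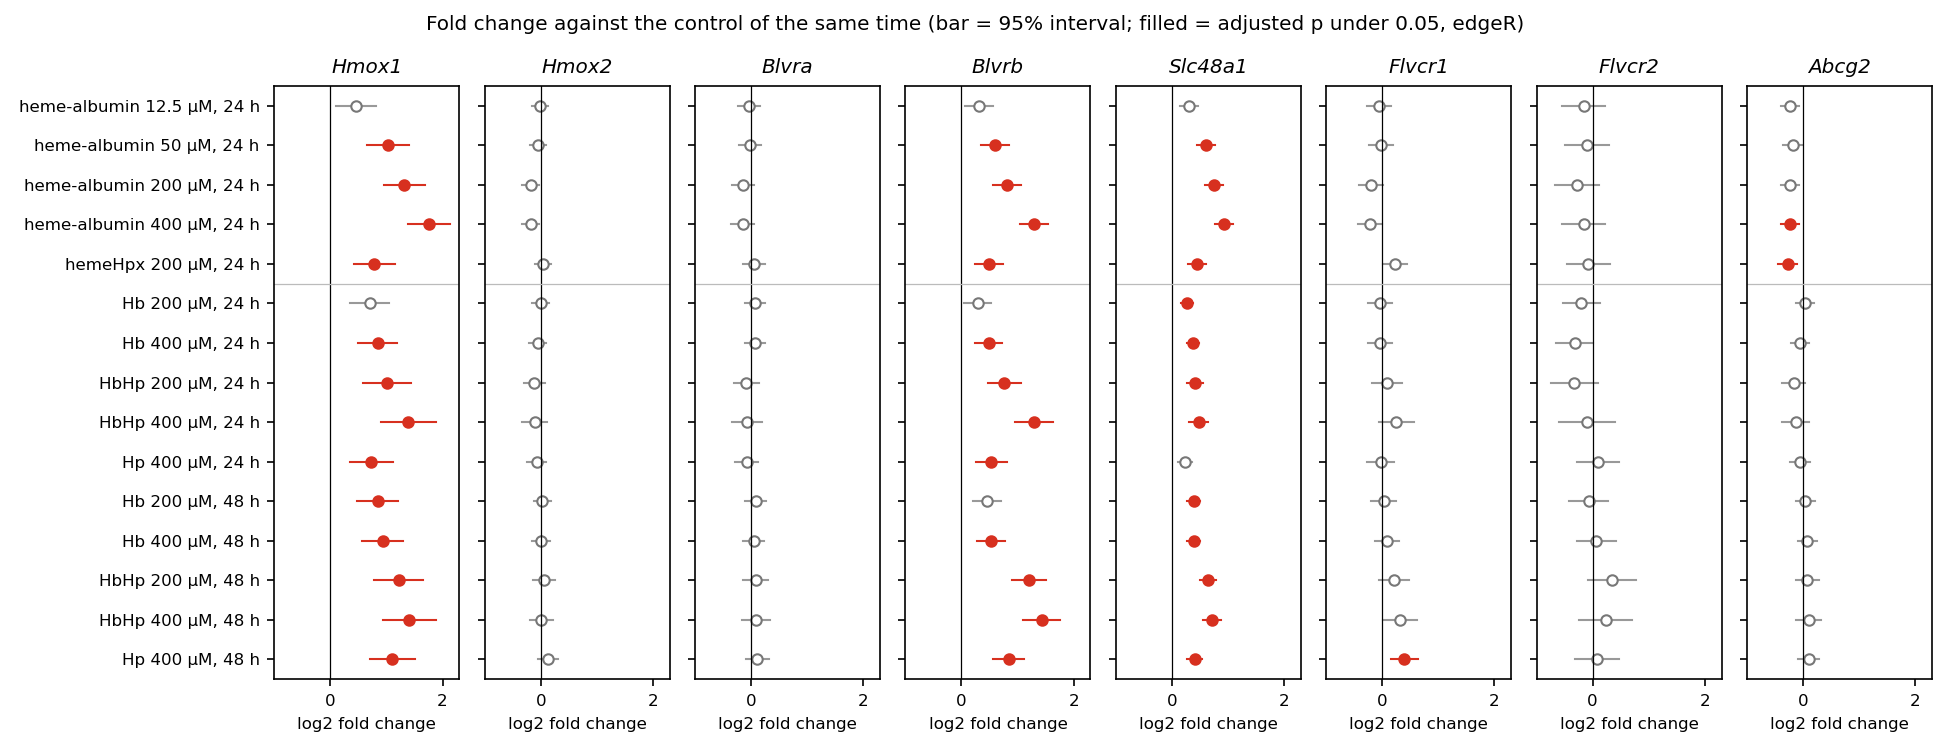
Log2 fold change of each of the 8 genes against the control of the same time, with its 95% interval, for the 15 treatments of the series. Filled points passed an adjusted p of 0.05 by edgeR. Hmox1 was called higher in 13 of 15, Slc48a1 in 13 and Blvrb in 12, and their points lie right of 0 in all 15.

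In batches 2 and 3, free Hb raised the same genes at 24 h. Hmox1 ran from 656 to 2541 CPM in controls at 24 h (median 1388), from 1031 to 3508 with 200 µM Hb (median 2016) and from 1362 to 4236 with 400 µM (median 2724). At 200 µM Slc48a1 passed (0.27 ± 0.06, adjusted p = 0.0135), while Hmox1 (0.70 ± 0.18, 0.0875) and Blvrb (0.29 ± 0.12) did not, 1 of 8 genes where 0.0971% of all genes passed. At 400 µM all 3 passed (0.522% of all genes): Hmox1 by 0.84 ± 0.18 (adjusted p = 0.00309), Blvrb by 0.49 ± 0.12 (0.0337) and Slc48a1 by 0.38 ± 0.06 (5.73e-06). Even so, 4 of 10 libraries at 400 µM lay within the range of the controls for Hmox1.

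At 48 h the Hb values were close to those at 24 h. Hmox1 ran from 729 to 3193 CPM in controls (median 1271), from 2101 to 4723 at 200 µM (median 2477) and from 1599 to 5321 at 400 µM (median 3074). The log2 fold changes were 0.85 ± 0.18 (adjusted p = 0.00787) and 0.93 ± 0.18 (0.000957). Slc48a1 rose by 0.39 ± 0.06 at both doses (2.67e-05 and 3.87e-06), and at 200 µM it held place 2 of 16473 genes ranked by p. Blvrb passed at 400 µM (0.53 ± 0.12, 0.0144) but not at 200 µM (0.46 ± 0.12, 0.0843, or 0.0354 with the mouse code as a block), which makes 2 of 8 genes at 200 µM (0.310% of all genes) and 3 at 400 µM (0.601%). Between 400 and 200 µM of Hb no gene of the 8, nor any other, passed at either time (0.00%), and the difference for Hmox1 was 0.14 at 24 h (95% interval -0.21 to 0.49) and 0.08 at 48 h (-0.26 to 0.43).

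Within single culture rounds, which held fewer libraries, the Hb calls thinned out, and Slc48a1 kept most of them. Round E2 held 2 to 4 libraries of each Hb group, with 3 controls at 24 h and 2 at 48 h. For 400 µM at 24 h Hmox1 stood at 0.79 in round E1 (adjusted p = 0.366) and 0.88 in E2 (0.0301), and Slc48a1 at 0.40 (0.00912) and 0.32 (0.0106). For 400 µM at 48 h Hmox1 stood at 1.16 in E1 (0.00828) and 0.28 in E2 (0.579), and Slc48a1 at 0.39 (0.00564) and 0.34 (0.0376). For 200 µM at 48 h only Slc48a1 passed, in both rounds (0.38 and 0.36), and at 24 h none of the 3 did in either. At 24 h Hmox1 stood at 0.69 in E1 and 0.79 in E2, Blvrb at 0.28 and 0.40, and Slc48a1 at 0.33 and 0.17. Within batch 3 alone, which held 2 libraries of each Hb group and 2 controls at each time, none passed, and at 200 µM and 24 h Hmox1 and Blvrb lay below control (-0.13 and -0.19).

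Under hemoglobin bound to haptoglobin, Hmox1, Blvrb and Slc48a1 had higher medians than under free Hb or Hp of the same dose and time. The HbHp libraries were all of round E2, while most Hb libraries were of round E1. With 200 µM HbHp for 24 h Hmox1 ran from 3691 to 4919 CPM (median 3860, n = 8), and with 400 µM the 4 libraries held 6515, 5207, 5411 and 3669 CPM. At 48 h the 200 µM libraries ran from 4536 to 7105 CPM (median 5190, n = 8), and the 5 libraries of 400 µM held 4970, 4279, 7606, 7937 and 5504.5 CPM. Every one of these 25 libraries lay above the highest control of its time. The log2 fold change of Hmox1 was 1.01 ± 0.22 at 200 µM (adjusted p = 0.00291) and 1.39 ± 0.25 at 400 µM (5.88e-05) at 24 h, and 1.22 ± 0.22 (4.85e-05) and 1.41 ± 0.24 (9.20e-06) at 48 h.

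Blvrb showed the same order and came closest to Hmox1 in fold. At 400 µM HbHp the 4 libraries of 24 h held 94.96, 71.6, 62.3 and 48.0 CPM and the 5 of 48 h held 72.99, 80.6, 109.9, 106 and 70.2 CPM, against controls from 19.2 to 34.2 at 24 h and from 21.5 to 40.7 at 48 h. No HbHp library overlapped with its controls. The log2 fold change was 0.76 ± 0.15 at 200 µM (adjusted p = 0.000850) and 1.29 ± 0.17 at 400 µM (3.63e-08) for 24 h, and 1.21 ± 0.15 (5.52e-09) and 1.43 ± 0.17 (1.85e-10) for 48 h. The last, a 2.69-fold rise, was the highest value of Blvrb in the series.

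Slc48a1 held 471, 427, 418 and 436 CPM in the 4 libraries of 400 µM HbHp at 24 h and 512, 485, 515, 498 and 445 CPM in the 5 at 48 h. Controls ran from 231 to 351 CPM at 24 h and from 209 to 331 at 48 h, below every HbHp library. Its log2 fold change was 0.41 ± 0.07 (adjusted p = 7.43e-05) and 0.48 ± 0.08 (3.14e-05) at 24 h for 200 and 400 µM, and 0.65 ± 0.07 (9.89e-11) and 0.72 ± 0.08 (2.79e-11) at 48 h. These 3 genes were the only ones of the 8 to pass under HbHp, where 1.93% and 5.15% of all genes passed at 24 h and 11.9% at 48 h for either dose. Between 400 and 200 µM of HbHp none of the 8 passed at 24 h (0.176%) or at 48 h (0.127%), with Blvrb at 0.53 (95% interval 0.21 to 0.85) and 0.22 (-0.08 to 0.52).

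**Figure D3:**
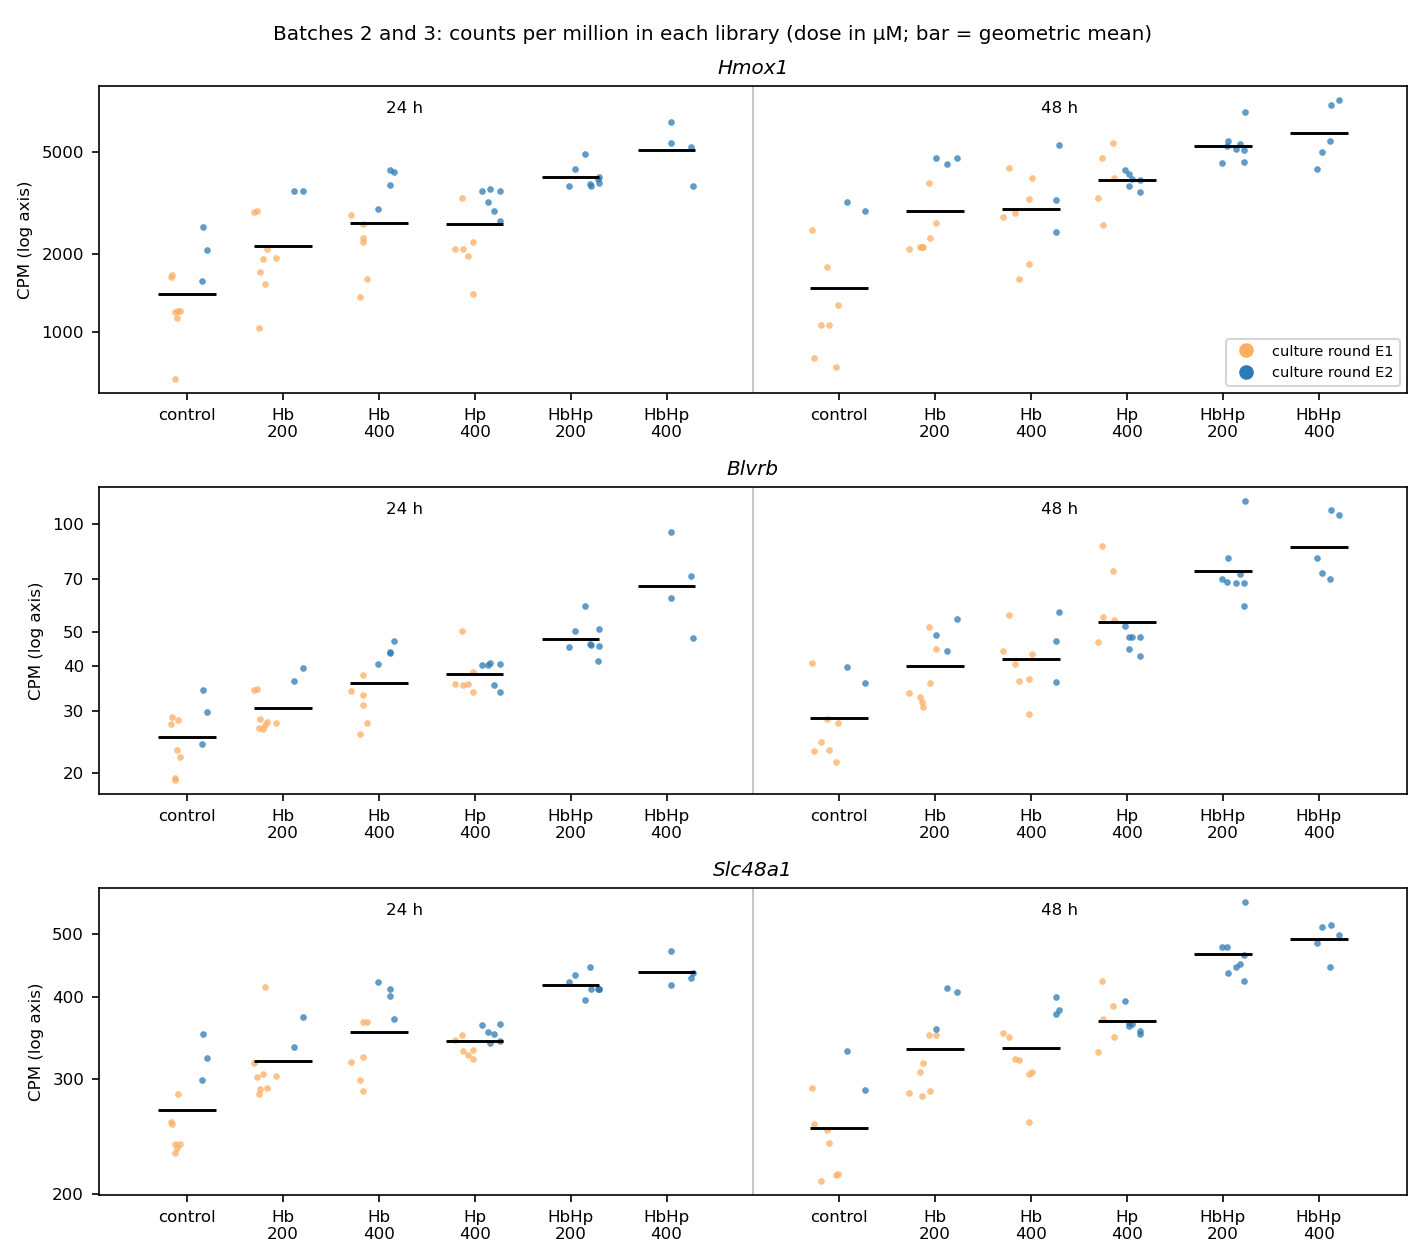
CPM (log axis) of Hmox1, Blvrb and Slc48a1 in each library of batches 2 and 3, by treatment and time, with the culture round in colour and the geometric mean of each group as a bar. HbHp libraries, all of round E2, lie above every control, and at 24 h control, Hb and Hp libraries of round E2 have higher medians of Hmox1 than those of round E1.

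Control levels differed by culture round. Among controls, Hmox1 ran from 656 to 1661 CPM in the 7 libraries of round E1 at 24 h and from 1569 to 2541 in the 3 of round E2, and from 729 to 2486 in the 7 of E1 at 48 h and from 2940 to 3193 in the 2 of E2. Within round E2 alone the 3 genes still passed in each of the 4 HbHp comparisons, each at a lower value than over both rounds. At 48 h Hmox1 stood at 0.76 for 200 µM (adjusted p = 0.0374) and 0.94 for 400 µM (0.00955). Blvrb stood at 0.96 (0.00391) and 1.18 (0.000406) and Slc48a1 at 0.53 (5.63e-06) and 0.60 (9.00e-07). At 24 h in round E2 Hmox1 stood at 0.93 (0.00899) and 1.31 (0.000180). Blvrb stood there at 0.68 (0.0490) and 1.21 (0.000180), and Slc48a1 at 0.30 (0.0150) and 0.37 (0.00246). Within batch 3 alone, with its 2 controls at each time, Hmox1 and Blvrb did not pass at 200 µM and 24 h (0.73 and 0.60, adjusted p = 0.132 and 0.167) and passed in the other 3 comparisons.

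Haptoglobin alone at 400 µM, given as the partner protein of HbHp, also raised some of these genes. At 24 h Hmox1 ran from 1407 to 3571 CPM (median 2818, n = 12) and Blvrb from 33.8 to 50.1 (median 37.1), with log2 fold changes of 0.73 ± 0.20 (adjusted p = 0.0483) and 0.53 ± 0.14 (0.0408), and Slc48a1 did not pass (0.23 ± 0.06, 0.0571). With the mouse code as a block Slc48a1 passed (0.0426) and Blvrb did not (0.50, adjusted p = 0.0588). That made 2 of the 8 genes, where 0.704% of all genes passed. At 48 h Hmox1 ran from 2596 to 5389 CPM (median 3931, n = 11), and 4 of the 8 genes were called higher, where 10.8% of all genes passed in either direction. They were Hmox1 (1.11 ± 0.20, adjusted p = 0.000185), Blvrb (0.84 ± 0.14, 2.73e-05), Slc48a1 (0.41 ± 0.07, 1.93e-05) and Flvcr1 (0.39, 0.0282).

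The Hp values differed by culture round. At 48 h, within round E1 alone Hmox1 rose by 1.66 (adjusted p = 0.000259), Blvrb by 1.27 (2.54e-06) and Slc48a1 by 0.61 (7.87e-05), whereas within round E2 alone they stood at 0.31 (0.751), 0.29 (0.742) and 0.18 (0.423). At 24 h Hmox1 stood at 0.87 in E1 (0.140) and 0.62 in E2 (0.209). Blvrb passed at 24 h in E1 (0.72, adjusted p = 0.0160) but not in E2 (0.36, 0.594). Slc48a1 likewise passed in E1 (0.41, 0.0212) but not in E2 (0.05, 0.911). The difference between rounds was not tested. All Hp libraries were of batch 3, and in batch 3 alone, with its 2 controls, none of the 3 genes passed under Hp at either time. Flvcr1, the fourth gene at 48 h, was lost with the mouse code as a block (0.38, adjusted p = 0.0558), in round E2 alone (0.17, adjusted p = 0.851), without a batch term (0.19, 0.306) and without either term (0.26, 0.128).

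Against its own partners at the same dose and time, HbHp differed most clearly in Blvrb. Against free Hb, Blvrb was higher with HbHp by 0.75 ± 0.15 at 200 µM and 48 h (adjusted p = 0.00145), by 0.80 ± 0.17 at 400 µM and 24 h (0.00456) and by 0.90 ± 0.17 at 400 µM and 48 h (0.000251), and at 200 µM and 24 h it stood at 0.47 ± 0.15 without passing (0.119). No comparison of HbHp with Hb at 400 µM was recomputed under an alternative setting or with a library left out. Against Hp alone at 400 µM Blvrb was higher by 0.76 ± 0.15 at 24 h (0.00260) and by 0.59 ± 0.15 at 48 h (0.0172). These last calls rested on single libraries: without replicate 1 of HbHp at 24 h the value was 0.57 (adjusted p = 0.311), and without replicate 3 or 4 at 48 h it was 0.48 (0.126) or 0.51 (0.110). Within round E2 alone both were called, at 0.85 (0.000240) and 0.88 (2.72e-05).

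Slc48a1 was higher with HbHp than with Hb at 48 h, by 0.26 ± 0.07 at 200 µM (adjusted p = 0.0183) and 0.33 ± 0.08 at 400 µM (0.00663), and higher than with Hp at 48 h by 0.31 ± 0.07 (0.00558). The first was lost without replicate 1 of HbHp (0.22, adjusted p = 0.0758) and within round E2 alone (0.17, 0.267), where Blvrb at 200 µM was not called either (0.57, 0.134). At 24 h Slc48a1 did not pass against any partner in the full model. Against Hp it passed with the mouse code as a block (0.28, adjusted p = 0.0143). It also passed there within round E2 alone (0.32, adjusted p = 0.000265) and within batch 3 alone (0.28, 0.0406). In the full model Hmox1 did not pass in any of the 6 comparisons of HbHp with a partner. Its values there ran from 0.30 to 0.66 and the 95% intervals reached from -0.13 to 1.10. Within round E2 alone Hmox1 passed against Hp at 24 h (0.69, adjusted p = 0.0143) and 48 h (0.63, 0.00952). Against Hb at 200 µM and 48 h it did not (0.16, 0.830). Within batch 3 alone it passed against Hp at 24 h (0.75, 0.0154) but not at 48 h (0.39, 0.238). In counts of the full model, 0 of 8 genes passed for HbHp against Hb at 200 µM and 24 h (0.607% of all genes) and 2 at 48 h (4.98%). Against Hb at 400 µM the counts were 1 at 24 h (2.21%) and 2 at 48 h (4.28%). Against Hp they were 1 at 24 h (0.619%) and 2 at 48 h (1.44%).

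**Figure D4:**
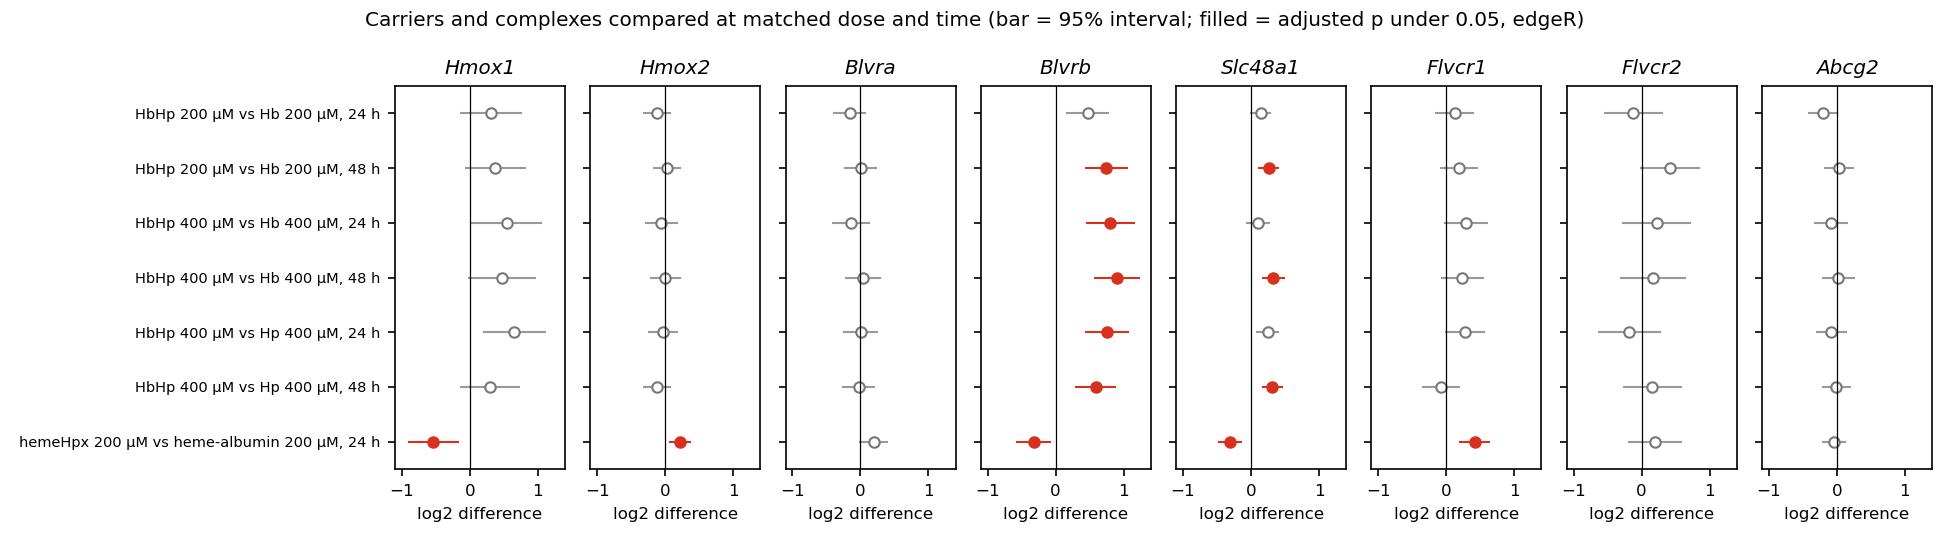
Log2 difference of each of the 8 genes, with its 95% interval, between HbHp and free Hb or Hp alone, and between hemeHpx and heme-albumin, at matched dose and time. Filled points passed an adjusted p of 0.05 by edgeR. Blvrb is filled in 5 of 6 comparisons of HbHp, Hmox1 in none of them, and under hemeHpx Hmox1, Blvrb and Slc48a1 lie left of 0 while Hmox2 and Flvcr1 lie right of it.

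Length of exposure moved none of the 8 genes past the test. Between 48 and 24 h in control slices 4.50% of all genes passed, and of the 8 Flvcr2 had the widest difference (-0.45 ± 0.17, adjusted p = 0.114). The treatment effect at 48 h minus that at 24 h passed for none of the 8 in any of the 5 treatments, where 0.0121% of all genes did for 200 µM HbHp, 0.0304% for 400 µM HbHp and 0.00% for the other 3. For Hmox1 these differences ran from 0.02 to 0.37 with 95% intervals from -0.61 to 0.86, and for Blvrb from 0.04 to 0.45 with intervals from -0.30 to 0.81. Intervals of that width leave room for a change over time as large as the effect of free Hb itself.

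The ratio of the inducible to the constitutive enzyme within a library shows the shift without reference to other genes. In controls of batch 1 Hmox1 had 14.9 to 40.5 times the reads per base of exon of Hmox2 (median 29.3). The median ratio was 39.3 at 12.5 µM heme-albumin, 57.9 at 50 µM, 86.5 at 200 µM and 109 at 400 µM, and 50.6 with hemeHpx. At 400 µM it ran from 71.1 to 149, above every control. With HbHp it had a median of 100 at 400 µM and 24 h and 103 at 48 h, against 30.5 and 30.8 in the controls of those times.

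The ratio of Blvrb to Blvra also moved. Per base of exon, Blvrb had 0.73 to 1.06 times the reads of Blvra in controls of batch 1 (median 0.95) and 0.91 to 1.29 times in controls of 48 h (median 1.09). At 400 µM heme-albumin the ratio ran from 2.10 to 2.93 (median 2.46) and at 400 µM HbHp for 48 h from 2.00 to 2.88 (median 2.42), and with hemeHpx from 1.03 to 1.49 (median 1.26). At 48 h the ratio of Blvrb to Blvra ran from 1.08 to 3.01 with Hp alone (median 1.36). With 400 µM Hb it ran from 1.25 to 1.82 (median 1.49). The ratio of Flvcr1 to Flvcr2 had medians between 10.9 and 20.9 over the 18 groups and no group without overlap with its controls.

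**Figure D5:**
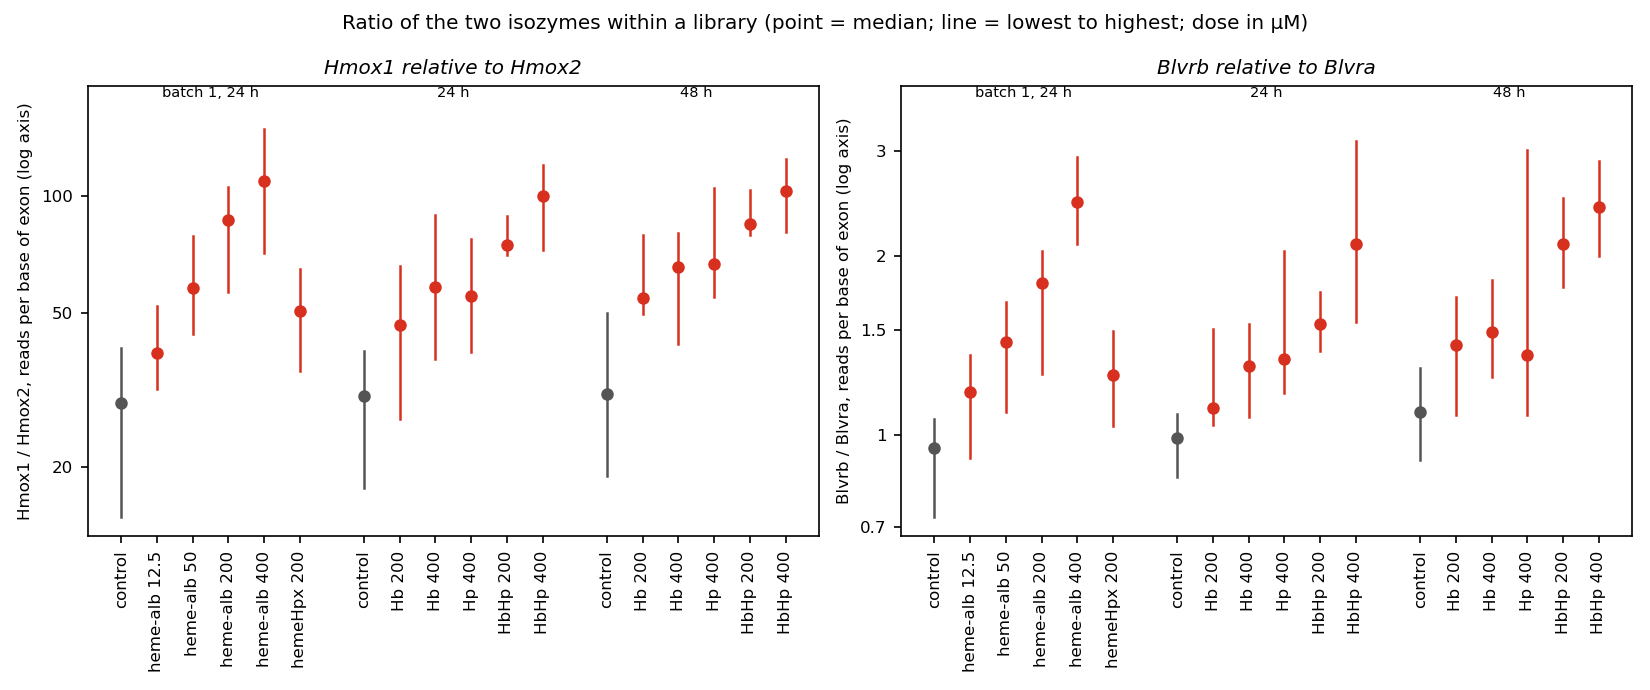
Ratio of Hmox1 to Hmox2 and of Blvrb to Blvra, in reads per base of exon (log axis), by treatment, as the median and the full range over libraries. Both ratios climb with the dose of heme-albumin, to medians of 109 and 2.46 at 400 µM. In batches 2 and 3 their medians are highest with HbHp, with ranges that overlap those of Hp alone at 48 h.

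The 5 genes that did not follow are best described by their limits. Over the 15 comparisons with control, Hmox2 stayed between -0.18 and 0.13 on the log2 scale and Blvra between -0.15 and 0.11, with 0 calls each. The outermost ends of their 95% intervals were -0.33 and 0.31 for Hmox2 and -0.35 and 0.33 for Blvra. Flvcr1 ran from -0.22 to 0.39, with its 1 call under Hp at 48 h. Flvcr2, the least abundant, ran from -0.32 to 0.35 with intervals reaching -0.74 and 0.78, and had 0 calls. Abcg2 ran from -0.27 to 0.11, with its 2 lower calls in batch 1. Reads of Hmox2 and Slc48a1 carry a further limit, since Cdip1 and Hdac7 lie across them on the other strand and whether the counting used strand is not given in the sources used here.

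Other genes of the pathway, from lists chosen with earlier results of these data known, moved unevenly. Of 12 NRF2 targets (not counting the genes above), all 12 rose with 200 and 400 µM heme-albumin, with 400 µM Hb at both times and in all 4 HbHp comparisons, with a median of 0.69 at 200 µM heme-albumin beside -0.01 over all genes. Among all genes 13.6% were called at 200 µM heme-albumin, 14.7% were higher at 400 µM, 0.522% and 0.601% were called with 400 µM Hb at 24 and 48 h, and with HbHp 1.93% and 5.15% at 24 h and 11.9% at 48 h for either dose. At 200 µM heme-albumin they included Gclm, of glutathione synthesis (0.95 ± 0.06), Srxn1 (1.25 ± 0.09) and Osgin1 (1.37 ± 0.10). With hemeHpx 5 of 12 rose, where 8.20% of all genes were called, and the median was 0.20. Of 10 regulators of BACH1 and NRF2, 5 rose at 200 µM heme-albumin (13.6% of all genes called) and 8 at 400 µM (14.7% higher), among them Sqstm1, whose product p62 binds KEAP1 (0.95 ± 0.09 at 200 µM), and 5 rose with 200 µM HbHp at 48 h (11.9% called), where Bach1 itself stood at 0.26 ± 0.06 (adjusted p = 0.00267).

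Iron set free from heme is stored in ferritin or exported by ferroportin. Of 12 genes of iron handling, 5 rose and 1 fell at 200 µM heme-albumin (13.6% of all genes called), with Slc40a1 (ferroportin) at 2.03 ± 0.18, the ferritin heavy chain Fth1 at 0.52 ± 0.11 and the transferrin receptor Tfrc at -0.89 ± 0.16. With hemeHpx 1 rose and 3 fell (8.20% of all genes called). At 48 h of 200 µM HbHp 5 rose and 3 fell (11.9%), with Slc40a1 at 1.69 ± 0.22 and Fth1 at 0.97 ± 0.12.

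Of 8 enzymes of heme synthesis, 1 fell and none rose at 200 µM heme-albumin (13.6% of all genes called): Alas1, the first and rate-limiting step, at -0.92 ± 0.06 (adjusted p = 1.30e-17). At 400 µM HbHp and 48 h Alas1 rose instead, by 0.60 ± 0.12 (adjusted p = 0.000170), a value named after it was seen. Of 12 other heme carriers and binders, 2 rose at 200 µM heme-albumin, Abcb6 (0.60 ± 0.15) and Gstp1 (0.47 ± 0.07), and 0 fell. Of 6 tested scavengers and receptors, Cd163 fell at 200 µM heme-albumin (-0.91 ± 0.24). Cd163 is also counted among the border macrophage markers below. Hp itself was lower at 48 h of 200 µM HbHp (-0.80 ± 0.25, adjusted p = 0.0212), where 11.9% of all genes were called. The called shares of these 3 lists at 200 µM heme-albumin lay near the 13.6% of all genes. The medians of these 3 lists lay between -0.05 and 0.05 at 200 µM heme-albumin, next to -0.01 over all genes.

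Over the 15 fold changes against control, the genes most like Hmox1 among 13236 were Slc40a1 (Pearson r = 0.96), Anxa7 (0.96) and Abcc1 (0.95), and those most like Blvrb were Ubap1, Pgd and Tmem43 (each 0.97). Slc48a1 was nearest to Htatip2, Sqstm1 and Smg8 (each 0.93). Hmox2 and Blvra had Gpx1 in common among their nearest 3 (0.94 and 0.95), with Tmem159 (0.97) and Crip1 (0.94) for Hmox2 and Vkorc1 (0.95) and Dpep2 (0.92) for Blvra. Flvcr2 was nearest to Abcb1a (0.90), Enpep (0.87) and Mmrn2 (0.86). Flvcr1 was nearest to Mettl7a1 (0.97) and Abcg2 to Fam111a (0.97). These points share control libraries, so each r describes the 15 values and nothing more.

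Among libraries of the same group the genes also varied together. The deviations of log2 CPM from the group mean had r = 0.83 between Hmox1 and Blvra over the 60 libraries of batch 1 and 0.84 over the libraries of batches 2 and 3, and 0.81 and 0.87 between Hmox2 and Blvra. Across group means Hmox1 and Blvra went opposite ways in batch 1 (r = -0.72 over 6 groups) and the same way in batches 2 and 3 (r = 0.91 over 12 groups, which differ in their make-up by culture round). These are descriptions over libraries that share batches and rounds. Flvcr2 followed the others least, with r = 0.03 to Hmox1 in batches 2 and 3.

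Cell type markers moved with some of these comparisons, and their part in the values was not tested. At 200 µM heme-albumin 6 of 8 microglia markers fell (median -0.82), and their summed level ran from 341 to 881 CPM (median 622) against 453 to 1962 (median 870) in controls. There 3 of 6 border macrophage, 3 of 6 astrocyte, 2 of 8 endothelial and 1 of 5 pericyte markers fell as well, 0 of 6 oligodendrocyte and 0 of 8 neuron markers passed. Of all genes 13.6% were called there, so the endothelial and pericyte counts lie near the background. At 400 µM 3 of 8 microglia and 4 of 6 astrocyte markers fell, where 14.3% of all genes were lower. With hemeHpx 0 of 8 microglia markers passed. With 200 µM HbHp at 48 h 1 of 6 border macrophage markers rose, 1 of 6 astrocyte markers fell, and 0 of 8 microglia markers passed with a median of -0.39, although their summed level had a median of 2305 CPM against 1485 in controls, which were mostly of the other round. Of all genes 11.9% were called there. Neuron markers summed to a median of 101 CPM in controls of batch 1 (lowest 63.4, highest 203), and all 8 passed the filter on low counts. None of 6 red cell markers passed the filter on low counts.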

How the data were processed

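Bulk polyadenylated RNA of mouse brain slices was sequenced, and the values deposited by the authors are whole read counts, listed by Ensembl gene ID (featureCounts and GRCm39 per the submitters' processing notes). The aligner, annotation release and use of strand are not given in the sources used here. Groups came from the GEO labels. Genes were filtered with filterByExpr (minimum count 10, minimum total 15), scaled by TMM and fitted with edgeR 4.0.16 in R 4.3.3 (quasi-likelihood test, Benjamini-Hochberg adjustment over all genes, called at an adjusted p under 0.05). Batch 1 was fitted by group (60 libraries, 15554 genes), and batches 2 and 3 by group, batch and culture round (107 libraries, 16473 genes). SE was taken as the size of the log2 fold change over the root of its F statistic. CPM used TMM library sizes, and CPM per kb the union of exons in GENCODE M21, of another build than the counts. Depth was 11038484 to 54174784 counts. Groups of batch 1 hold 10 libraries each, all from the same 9 mouse codes, and the main model leaves out this pairing. Its p-values measure the spread between libraries, which may share a mouse. The 8 genes and all lists were chosen with earlier results of these data known. Of the listed genes, the text names some of those called, from the 3 of lowest adjusted p in each list. These were taken for 200 µM heme-albumin and for 200 µM HbHp at 48 h. Alas1 at 400 µM HbHp was named outside this rule. Alternatives were DESeq2 1.42.0, other scaling, no filter, other terms, single rounds or batches, and leaving out in turn each 400 µM HbHp library and each round E2 control. Scripts were tested on simulated data.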

Additional observations from a re-analysis of the deposited data

Results flagged for a closer look

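Single libraries stood apart from the rest of their group for 11 of 128 gene and group pairs by Dixon's test, where chance gives about 1 in 20. Each value below is the gap to the nearest library divided by the range of the group, both taken in log2 CPM.

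Replicate 1 of 200 µM HbHp at 48 h was the highest of its 8 libraries for 6 genes. It held 7105 CPM of Hmox1 against 5505 in the next library (0.568 of the range), 116 CPM of Blvrb against 80.3 (0.545) and 559 CPM of Slc48a1 against 477 (0.569). It also led for Hmox2 (0.681), Blvra (0.534) and Abcg2 (0.674), which did not pass against control. Without it the 3 genes that rose against control were still called, and the Slc48a1 call against free Hb was lost.

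The remaining 5 were scattered. Hmox2 was highest in replicate 9 of 200 µM heme-albumin (0.480), and Slc48a1 was lowest in replicate 8 of that group, at 280 CPM against 364 (0.580). Blvra was highest in replicate 10 of the 24 h controls of batches 2 and 3 (0.600) and lowest in replicate 9 of 400 µM Hb at 24 h (0.523). Abcg2 was highest in replicate 5 of 50 µM heme-albumin (0.502).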

How the results depend on the processing

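Of 529 values of the 8 genes that were called in the model and recomputed under an alternative, 472 passed again, 57 did not and 0 turned sign. Of the uncalled ones 32 passed. TMM against DESeq2's size factors changed no call, and DESeq2 added 1 (Slc48a1 under Hp at 24 h, 0.23, adjusted p = 0.0301). Counts over all genes were less steady, over 1.5 times apart in 86 of 215 cases, such as 4066 against 1959 genes for 200 µM HbHp at 48 h without the round term.

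The count of the 8 genes called moved by 1.5 times or less in other cases, such as from 4 to 3 without the filter at 400 µM heme-albumin and under hemeHpx (Abcg2), and from 2 to 3 for Hp at 24 h with the sex letter as a term (Slc48a1). It moved by more in the cases below. Without the filter, Hp at 24 h had 1 (against 2). With the replicate block on mouse codes, 12.5 µM heme-albumin had 1 (against 0: Slc48a1, 0.32, adjusted p = 0.0335) and HbHp against Hp at 24 h had 2 (against 1). With the sex letter as a term the last also had 2. Without the round term, Hb 200 µM had 0 at 24 h and 1 at 48 h, Hp at 24 h had 0, HbHp against Hb at 200 µM and 24 h had 2, and HbHp against Hp at 24 h had 2. With neither term these were 0, 1, 3 and 2 for the same Hb and HbHp comparisons, and 200 µM HbHp at 48 h had 5. In round E2 alone, Hb 200 µM had 0 and 1, Hb 400 µM at 48 h 1, Hp 0 and 0, HbHp against Hp at 24 h 3, and HbHp against Hb at 200 µM and 48 h 0. In round E1 alone, Hb 200 µM had 0 and 1, and Hb 400 µM at 24 h 1. In batch 3 alone, every Hb and Hp comparison with control had 0, 200 µM HbHp at 24 h 1, HbHp against Hp at 24 h 3, and HbHp against Hb at 200 µM and 48 h 0. In the 55 libraries of the 200 µM groups, Hb 200 µM at 24 h had 2 and HbHp against Hb at 48 h 1, and Hmox1 under 200 µM HbHp at 24 h was not called (0.75, adjusted p = 0.0812). The cause was not tested.

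Leaving out in turn each 400 µM HbHp library and each control of round E2 left the 4 HbHp comparisons with control at 3 genes, and leaving out the HbHp libraries gave 0 to 1 for HbHp against Hp at 24 h and 1 to 2 at 48 h. Leaving out replicate 1 of 200 µM HbHp at 48 h, chosen after seeing the data, gave 1 against Hb. Libraries of the same mouse code deviated together only in part. Their median correlation was 0.19 in batch 1, against -0.01 for other pairs, with 94 of 169 pairs over 0.1, and 0.061 in batches 2 and 3, against -0.005 for other pairs, with 124 of 291 over 0.1. The block stayed an alternative, so p-values and shares of all genes in batch 1 ignore the mouse codes that its groups share. With the block hemeHpx had 3706 genes called in place of 1276. For Flvcr2 the depth, 13 to 222 reads, limits what could be seen.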

Other observations

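Of the 21 libraries left out of all comparisons, 20 carry a tag for hemoglobin with hemopexin at 400 µM while their titles name haptoglobin. The 10 tagged 24 h ran from 1354 to 3650 CPM for Hmox1 (median 1959), from 27.9 to 49.6 for Blvrb (median 32.7) and from 239 to 312 for Slc48a1 (median 271). The 10 tagged 48 h ran from 1769 to 5501 CPM for Hmox1 (median 3812), from 25.8 to 62.2 for Blvrb (median 44.5) and from 271 to 367 for Slc48a1 (median 308). The last library, of conflicting time, held 2560 CPM of Hmox1, 31.7 of Blvrb and 328 of Slc48a1.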
